A study of Mus musculus with 2 samples.

Results

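Iron-sulfur clusters are small inorganic cofactors that are built on a protein scaffold inside mitochondria and then handed to the enzymes that need them. The 8 genes described here, Nfs1, Lyrm4, Iscu, Hscb, Glrx5, Isca1, Isca2 and Abcb10, encode part of the mitochondrial assembly machinery and 1 inner membrane transporter. They were taken by symbol from the 43346 Ensembl genes of the deposited tables. All 8 were found, among 21461 nuclear protein-coding genes of which 12895 had a value above 0 in at least 1 library. The data are total RNA-seq of erythroblasts, the marrow cells that mature into red blood cells, from male C57BL/6J mice aged 5 to 6 weeks. The only group holds 2 libraries of primary cells, labelled as biological replicates 1 and 2, each made from 100 ng of RNA after removal of ribosomal RNA with a ScriptSeq kit. Their labels name the same donor record, so the difference between them could be wholly or partly technical, and no treatment, genotype or other cell type was available for a contrast. The labelled size range was 200 to 764 for replicate 1 and 138 to 1000 for replicate 2. The effect of that difference on the levels was not tested.

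In the pathway, a cysteine desulfurase takes sulfur from cysteine, the scaffold joins it to iron, a chaperone pair releases the finished cluster to a glutaredoxin, and late-acting factors pass it on or build the larger 4Fe-4S form. Developing red cells depend on these steps for hemoglobin, because ferrochelatase, which inserts iron into heme, carries a cluster, and because the cytosolic iron sensor Aco1 (iron regulatory protein) controls translation of the erythroid heme enzyme Alas2 when it lacks one. Inherited defects of GLRX5 and HSCB cause sideroblastic anemia in people, and those of ISCU chiefly affect muscle.

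The libraries held 37312624 (replicate 1) and 22464724 (replicate 2) expected counts, which are reads assigned to genes by a model that may split a read between them. A gene at 0 counts could have been as high as 0.0804 CPM (counts scaled to a library total of 1000000) in replicate 1 and 0.134 in replicate 2, limits that cover counting error only. Levels are given as coding-scaled TPM, the deposited TPM (transcript abundance per length, summing to 1000000 over all RNA) multiplied in each library by 1 factor that brings nuclear protein-coding genes to a total of 1000000. On this scale the median expressed protein-coding gene stood at 6.99 ± 0.0409 (SD, n = 2). Before rescaling, deposited TPM was lower in replicate 2 for the typical gene, with a median log2 ratio of -0.68 over 7658 protein-coding genes, against 0.03 after rescaling. All 10 erythroid markers, among them Gata1, Klf1 and the beta globins, were present in both libraries and summed to 96813 and 96403 coding-scaled TPM. These sums were mainly the beta globins Hbb-bs, at 39090.3 and 28462, and Hbb-bt, at 39663 and 48425. The next highest erythroid marker, Slc4a1, stood at 6811 and 7957. All 10 neutrophil markers were present too, summing to 20565 and 20072, the highest being S100a8 at 8719 and 7420.3. The 8 macrophage markers summed to 275 and 243, and 7 megakaryocyte markers, mainly Itga2b, to 100.0 and 116. The 5 eosinophil, basophil and mast cell markers were all present and summed to 757 and 644. The B cell and T cell lists summed to under 10 in each library, with Pax5, Cd3d and Cd8a at 0 counts. The part of RNA from these other cell types in the levels below was not tested.

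Most of the 8 genes stood high in these cells, but not evenly. All 8 genes reached 1 coding-scaled TPM in both libraries, against a background of 73.0% of expressed protein-coding genes. Their median was 154 in replicate 1 and 159 in replicate 2, 157 ± 3.44 (SD, n = 2). It lay between Iscu and Hscb, which moved in opposite directions between the libraries and had SDs of 22.4 and 15.6. The SD of a list median, here and below, thus does not give the spread of single genes. The median percentile of the 8 among expressed protein-coding genes was 94.5. By coding-scaled TPM, Isca1, Glrx5, Abcb10, Iscu and Hscb lay in the top 10% of those genes, whereas Isca2, Nfs1 and Lyrm4 did not. By deposited TPM, 6 of the 8 reached 1 in both libraries, against 33.8% of the same genes.

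**Figure D1:**
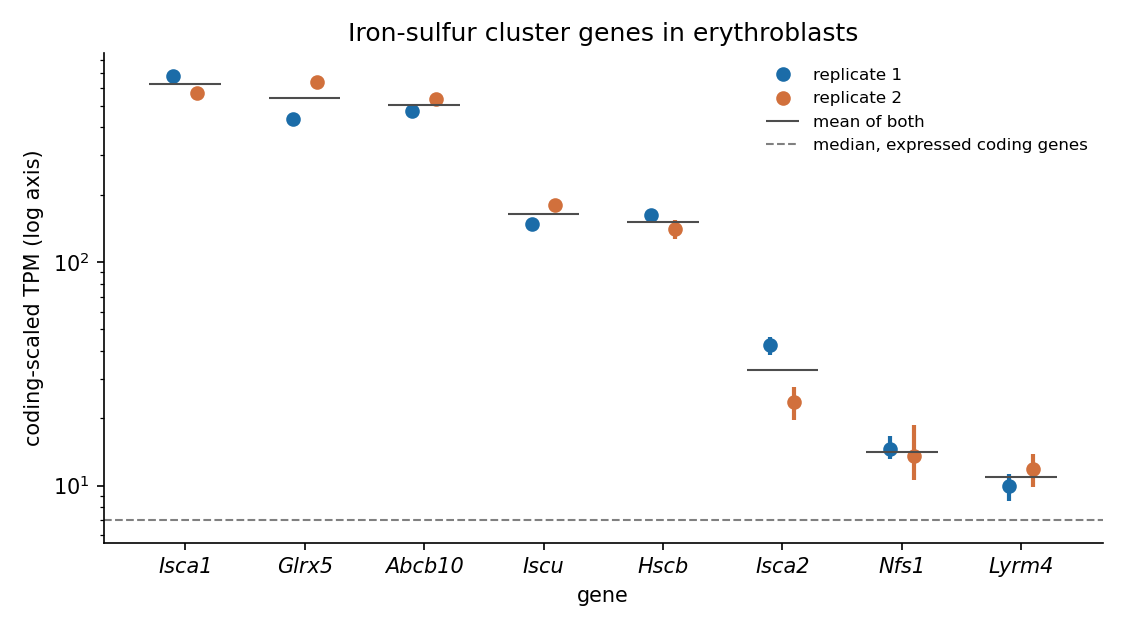
Coding-scaled TPM (log axis) of the 8 genes in replicate 1 (blue) and replicate 2 (orange), with the deposited credibility interval as a vertical line, the mean as a horizontal bar and the median expressed protein-coding gene as a dashed line. Isca1, Glrx5 and Abcb10 form the highest set between 437 and 678, and Nfs1 and Lyrm4 the lowest between 9.95 and 14.5.

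The 2 genes of the desulfurase complex were the lowest. Nfs1, the pyridoxal phosphate enzyme that supplies the sulfur, lies on the minus strand of chromosome 2 (chr2:156123639-156144186, mm10) and stood at 14.5 in replicate 1 and 13.6 in replicate 2, 14.1 ± 0.601 coding-scaled TPM (SD, n = 2), from 375 and 144 counts. Lyrm4, also called ISD11, is the small LYR-motif protein that holds Nfs1 in a stable complex. It lies at chr13:35978395-36117526 (minus strand) and stood at 9.95 and 11.9, 10.9 ± 1.37 (SD, n = 2), from 200.0 and 125 counts. On the opposite strand Fars2 shares 115 exon bases with Lyrm4 and was given 760.0 and 526.0 counts. The deposited model of Lyrm4 was 1515 bases long and the corresponding GENCODE M21 transcript 2086, so its level per length depends on the model. On the deposited models the partners were close to each other, with Nfs1 over Lyrm4 at 1.46 and 1.15 in the respective libraries. The lower Nfs1 value, 13.6, was above the higher Lyrm4 value, 11.9. In replicate 2, however, the deposited credibility intervals overlapped, 10.6 to 18.7 for Nfs1 and 9.84 to 13.9 for Lyrm4. The Nfs1 value there held 4.79 from a short model, Nfs1-204, and its main model, Nfs1-201, stood at 8.85, below Lyrm4. The order of these partners thus rests on Nfs1-204 in replicate 2. They ranked at the 64.2 and 58.8 percentile, nearer to the middle of expressed genes than any other member.

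For Nfs1 the counts and the TPM differed more than for any other member. Its counts gave a log2 ratio of replicate 2 over replicate 1 of -0.50 (95% interval -0.79 to -0.22, counting error only), whereas coding-scaled TPM gave -0.09. The transcript Nfs1-201 took 82.5% of the gene's TPM in replicate 1 and 64.3% in replicate 2, but 89.9% and 90.0% of its counts. The short model Nfs1-204, of 510 bases against 2051, had 0 counts in replicate 1 and 13.3 in replicate 2. That was 9.24% of the gene's counts there but 35.0% of its TPM. For TPM a count is divided by the deposited effective length, which is shorter than the model. In replicate 2 it was 358 for Nfs1-204 and 1899 for Nfs1-201. The higher share of Nfs1-204 in replicate 2 rests on those 13.3 estimated counts, with a deposited posterior SD of 4.61. The sequences where the models part are shown in transcript direction, 15 bases on each side, with the bases after the join in capitals. In Nfs1-201 exon 5 (chr2:156134406-156134558) is joined to exon 6 (chr2:156132633-156132726), and in Nfs1-204 a shortened form of that exon (chr2:156134459-156134558) is joined to a distant last exon (chr2:156123650-156123978).
Nfs1-201: atcattgacttaaagGAACTAGAGGCTGCC
Nfs1-204: ccctggaagctgaggGACCTACCTGTGCAG
Each of these 30-base strings occurred in 1 annotated transcript. Nfs1 shares 256 exon bases with the readthrough gene Gm28036 on the same strand, which was given 1070.3 and 203.8 counts, and 148 with Romo1 on the other strand, given 2.000 and 43.00. How the quantification divided reads in those stretches is an estimate, although the deposited posterior SD of the Nfs1 gene count was only 0.9 and 0.73.

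Iscu, the scaffold on which the cluster forms, was far above the enzyme that feeds it. It lies at chr5:113772748-113778288 (plus strand) and stood at 147 and 179, 163 ± 22.4 coding-scaled TPM (SD, n = 2), from 1741 and 1148 counts. The ratio of Iscu to Nfs1 was 10.1 in replicate 1 and 13.1 in replicate 2, and every Iscu value exceeded every Nfs1 value. The transcript Iscu-201 was the major form with 74.0% and 91.3% of the TPM. Iscu-202, which reads past the end of exon 4 (chr5:113776771-113776849) instead of joining exon 5 (chr5:113777833-113778288), took 11.9% and 4.62% of the TPM, and 18.4% and 6.92% of the counts. Those shares correspond to 319 and 79.4 counts, so that Iscu-202 was the lesser form in both libraries but differed between them by more than 2-fold in share. The 30 bases around the end of exon 4 are shown with what follows the exon in capitals.
Iscu-201: aactgcactgctccaTGCTGGCAGAAGACG
Iscu-202: aactgcactgctccaGTGAGTCTGCCCCAC
The capitals of Iscu-202 begin with GT, the letters with which introns start. The extended string is shared by Iscu-202, Iscu-203 and Iscu-204 and by no other gene. The spliced string is also present in the processed pseudogene Gm16437 on chromosome 19, which aligned to Iscu at 98.4% identity over 504 bases and was given 34.29 and 16.04 counts.

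The genes that take the cluster from the scaffold were both high. Hscb encodes the J-domain co-chaperone that brings the Iscu-bound cluster to the mitochondrial Hsp70, Hspa9 (mortalin). It lies at chr5:110829070-110839777 (minus strand) and stood at 162 and 140.0, 151 ± 15.6 coding-scaled TPM (SD, n = 2), from 1149 and 518 counts. Its values overlapped those of Iscu. Hspa9 stood at 58.6 and 54.5, so that Hspa9 over Hscb was 0.361 and 0.390 per length, while in CPM, which does not divide by length, the order was turned, with ratios of 2.19 and 2.36.

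Only part of the Hscb signal came from models annotated as coding. Hscb-201, the full-length coding form of 804 bases, had 59.9% of the gene's TPM in replicate 1 and 52.9% in replicate 2. Hscb-203, a 434-base model annotated as a target of nonsense-mediated decay, the pathway that degrades messages with a premature stop, had 35.7% and 43.0%, 39.4% ± 5.23 (SD, n = 2), from 214 and 132 counts. For comparison, over 1686 protein-coding genes with a mean of at least 100 counts and a transcript of this class, the median share was 5.25% and the 90th percentile 42.2%, and Hscb lay at the 88.9 percentile. By counts, which are not divided by length, the share of Hscb-203 was 18.7% and 25.5%. The remaining forms, Hscb-204 and Hscb-202, each had a value above 0 in 1 library only, at 4.45% and 4.04%. Transcripts of the coding class thus held 64.3% and 52.9% of Hscb TPM, against 91.3% and 99.3% for Nfs1, 92.7% and 99.4% for Iscu and 93.3% and 90.6% for Isca1.

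Hscb-201 and Hscb-203 part at a splice donor. In Hscb-201 the third exon ends at base 110835980 of chromosome 5, and in Hscb-203 the same exon, the second of that model, runs 5 bases further (chr5:110835975-110835979) before joining the same next exon (chr5:110834655-110834799). The junctions are shown in transcript direction, with the next exon in capitals for Hscb-201 and the 5 added bases in capitals for Hscb-203.
Hscb-201: agaggactatatcttCTAAAGCTCCAGGGA
Hscb-203: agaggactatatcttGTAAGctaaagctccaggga
The added bases are GTAAG, so the use of the nearer or the farther donor changes the length of the message by 5, which is not a multiple of 3 and shifts the reading frame. Each string occurred in 1 annotated transcript and in no other gene. A read crossing the junction can tell the forms apart, but so can reads outside the 434 bases of Hscb-203, and junction reads were not analysed here.

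Glrx5, the mitochondrial monothiol glutaredoxin that accepts the new cluster, was among the highest genes. It lies at chr12:105032688-105042906 (plus strand) and stood at 437 and 639.8, 538 ± 144 coding-scaled TPM (SD, n = 2), from 4912 and 3858 counts. It was higher in replicate 2, with a log2 ratio of 0.53 (95% interval 0.47 to 0.59, counting error only), the largest upward difference of the 8. Over Glrx3, the glutaredoxin of the cytosol, it stood 16.1-fold higher in replicate 1 and 20.8-fold higher in replicate 2. The deposited model of Glrx5 was 930 bases long and the corresponding GENCODE M21 transcript 2925, so its level per length depends on the model. Its level on the longer model was not measured.

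The late-acting pair was uneven. Isca1 and Isca2 form a complex that, with Iba57, makes 4Fe-4S clusters for enzymes such as aconitase and lipoate synthase. Isca1 (chr13:59755409-59769810, minus strand) stood at 678 and 570.3, 624 ± 76.5 coding-scaled TPM (SD, n = 2), from 18496 and 8166 counts, and ranked 196 among the expressed protein-coding genes. Isca2 (chr12:84773251-84775088, plus strand) stood at 42.3 and 23.6, 33.0 ± 13.2 (SD, n = 2), from 436 and 131 counts. Isca1 exceeded Isca2 by 16.0-fold and 24.1-fold in the respective libraries, and their ranges were far apart. Iba57, at 67.6 and 78.3, lay between them. Isca2 also differed most between the libraries, at a log2 ratio of -0.86 (95% interval -1.15 to -0.57, counting error only).

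Isca1 RNA was mainly the spliced form. Isca1-201 had 93.3% and 90.6% of the TPM, and the retained-intron model Isca1-202 had 6.72% and 9.43%, from 1637 and 1000.4 counts. This is below the median of 16.7% over 3445 such genes with a model of that class. The 30 bases across the end of exon 2 (chr13:59762742-59762795) are shown with what follows it in capitals, exon 3 (chr13:59758890-59758995) in Isca1-201 and the intron in Isca1-202.
Isca1-201: gacaaacctgagcatGTGGGTCTGAAAGTT
Isca1-202: gacaaacctgagcatGTAAGTAACTGTTGA
The intron string is found in Isca1 transcripts only. The spliced string also occurs in AK157302, a copy elsewhere on chromosome 13 that aligned at 99.0% identity over 1914 bases, and in Gm49354, a gene that overlaps Isca1. AK157302 was given 82.26 and 8.480 counts, few beside those of Isca1, and the posterior SD of the Isca1 count was 19.45 and 31.38. On the opposite strand Etohd2 shares 314 exon bases and was given 112.0 and 162.0 counts. Whether the counting used strand is not given in the sources used here.

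Abcb10, an inner membrane ABC transporter known as a GATA1-induced erythroid gene and as a partner of the iron importer mitoferrin-1 and of ferrochelatase, completed the highest set. It lies at chr8:123952459-123983122 (minus strand) and stood at 472 and 537, 505 ± 45.7 coding-scaled TPM (SD, n = 2), from 29557 and 17286 counts, the most counts of any member on the longest model, 4306 bases.

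In order of mean level, Isca1 lay above Abcb10 in both libraries with no overlap, while the range of Glrx5 overlapped both and its place differed between the libraries. All 3 lay above Iscu, by a ratio of means of 3.10 from Abcb10 to Iscu. Iscu and Hscb overlapped. Both lay above Isca2 (4.58 from Hscb), Isca2 lay above Nfs1 (2.35), and Nfs1 above Lyrm4 (1.29), each with no overlap of the values.

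No member differed 2-fold between the libraries. After TMM normalisation (edgeR's trimmed mean scaling), 0 of the 8 members were at least 2-fold apart, beside 10.5% of 8203 genes with a mean of at least 100 counts (4.69% higher in replicate 2 and 5.80% in replicate 1). Among the 7658 protein-coding ones the share was 8.54%, 2.93% higher in replicate 2 and 5.62% in replicate 1. The median log2 ratio was -0.08, beside -0.04 for protein-coding genes, and 4 of 8 lay below 0, beside 53.9%. Iscu at 0.28 (0.17 to 0.39), Abcb10 at 0.10 (0.08 to 0.13) and Glrx5 were higher in replicate 2. Hscb at -0.27 (-0.42 to -0.12), Isca1 at -0.30 (-0.34 to -0.26), Nfs1 and Isca2 were higher in replicate 1. The interval of Lyrm4, 0.20 (-0.13 to 0.53), included 0. These intervals hold counting error only, and with 1 library on each side they compare libraries and not conditions. Abcb10 turned to -0.04 with library totals alone, a scaling that lowers every ratio and under which Isca2 reached the 2-fold line at -1.0. The share of all genes at that line was not computed for this scaling.

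**Figure D2:**
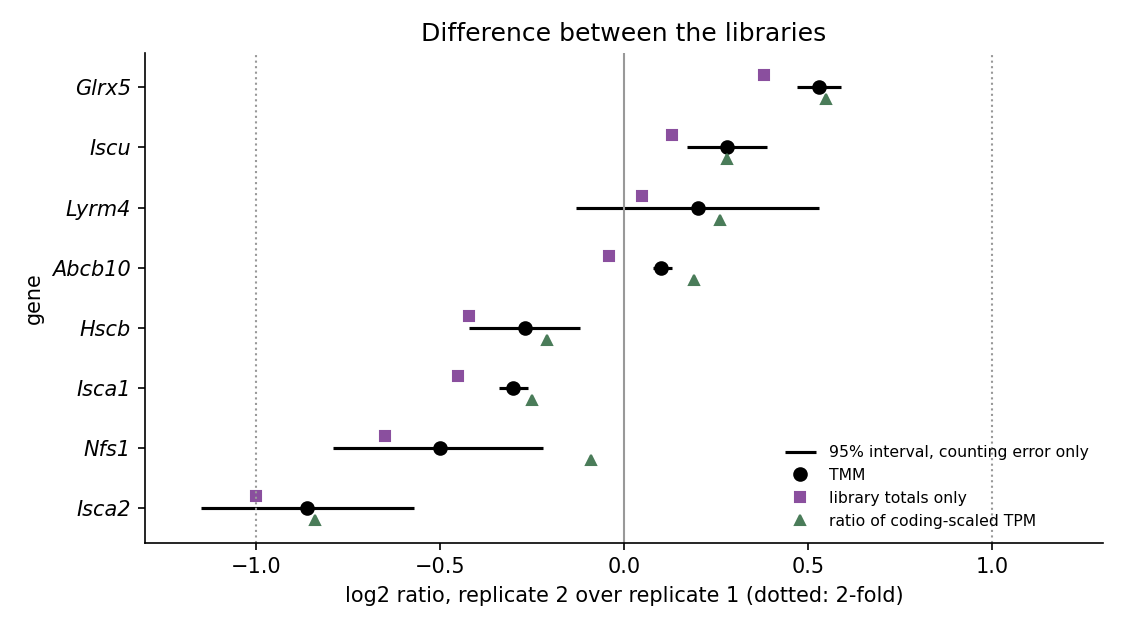
Log2 ratio of replicate 2 over replicate 1 for each gene after TMM (black, with 95% intervals for counting error), with library totals only (purple squares) and from coding-scaled TPM (green triangles). Every TMM value lies within the dotted 2-fold lines, from -0.86 for Isca2 to 0.53 for Glrx5, and Nfs1 shows the widest gap between counts and TPM.

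**Figure D3:**
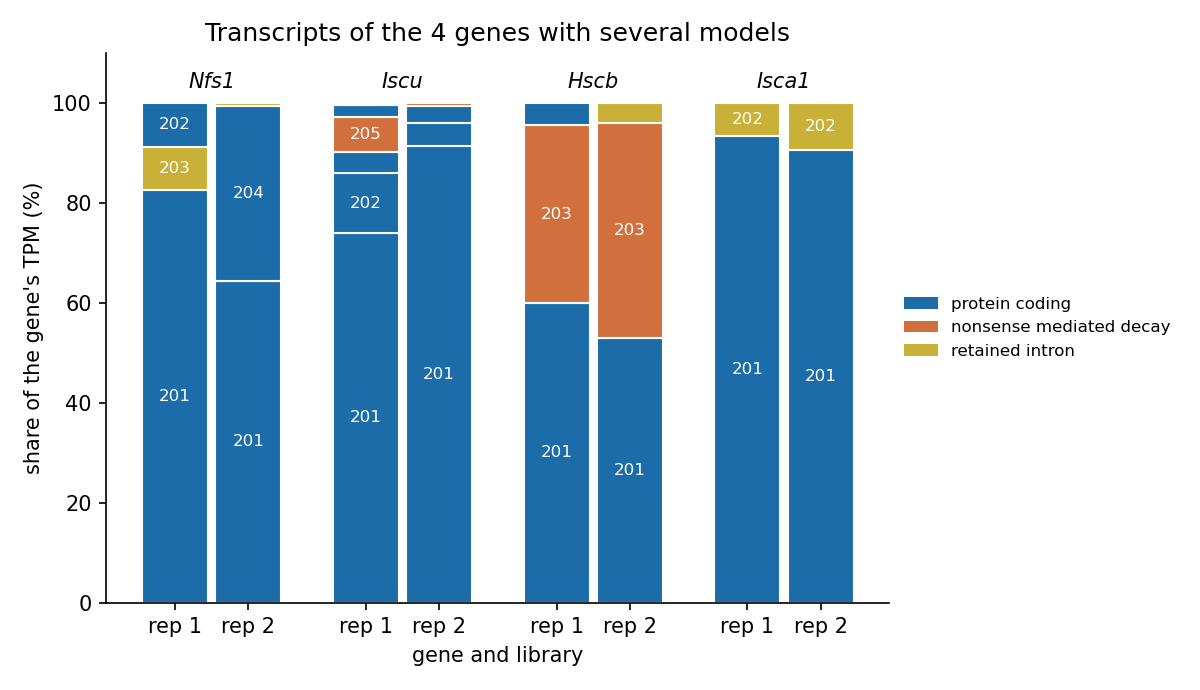
Share of each gene's TPM (%) by transcript model in each library, coloured by annotated class, for the 4 members with more than 1 model in the deposited tables. Hscb-203 takes 35.7% and 43.0%, Nfs1-204 appears in replicate 2 only, and Isca1-201 takes 93.3% and 90.6%.

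The other members, Abcb10, Glrx5, Isca2 and Lyrm4, had 1 model each in the deposited tables, so their transcript forms cannot be told apart there.

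The other genes of the mitochondrial pathway had a lower median than the 8, close to the 6.99 of all expressed protein-coding genes. Of 16 such genes, 14 reached 1 coding-scaled TPM in both libraries, with a median of 4.58 and 9.21, 6.89 ± 3.28 (SD, n = 2), and 1 lay in the top 10%. That was Bola3, which helps deliver 4Fe-4S clusters, at 98.5 and 121, followed by Iba57 at 73.0 ± 7.57 and Hspa9 at 56.5 ± 2.84 (SD, n = 2). Both Fdxr and Fdx2, which supply electrons, differed between the libraries. Each had a mean below 100 counts, so both were outside the background count of genes 2-fold apart. Fdxr, the reductase that passes electrons to the ferredoxins, had 59 counts in replicate 1 and 0 in replicate 2. With replicate 2 set to 3 counts, it was 10.7-fold higher in replicate 1, a value that ignores counting error in the 59. The interval for counting error allowed a log2 ratio as high as -3.08, a smaller difference. The deposited credibility intervals did not overlap, at 2.14 to 4.87 coding-scaled TPM in replicate 1 and 0.0775 to 1.45 in replicate 2. Fdx2, a mitochondrial ferredoxin, went the other way with 19 and 60 counts, 2.13 and 12.3 coding-scaled TPM, and a log2 ratio of 2.54. Grpel2, a nucleotide exchange factor for Hspa9, was 2-fold apart as well, with 106 and 126 counts and a log2 ratio of 1.13. Nubpl, which serves complex I, had 0 counts in both libraries.

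The cytosolic machinery, which loads clusters on cytosolic and nuclear proteins, was present throughout, with a lower median than the 8 members. All 11 genes reached 1 coding-scaled TPM in both libraries, with a median of 15.2 ± 0.709 (SD, n = 2), and none lay in the top 10%. The gene at the median was not the same in the 2 libraries. The highest were Ciao2a, a targeting factor for Aco1, at 39.1 and 69.3, Ciapin1, an electron carrier, at 34.3 and 45.0, and Glrx3 at 27.2 and 30.7. Ciao3 and Nubp2 were the lowest at 6.63 ± 1.08 and 7.30 ± 2.40 (SD, n = 2). Bola2, the partner of Glrx3, had 77 and 108 counts and a log2 ratio of 1.37, and with a mean below 100 counts it was outside the background count.

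Among 23 proteins that carry clusters, 20 genes reached 1 coding-scaled TPM in both libraries, with a median of 21.1 ± 0.870 (SD, n = 2). Fech, ferrochelatase, stood apart from the rest at 939 and 1008, above every one of the 8 members, while the next targets, the complex I subunits Ndufv1 and Ndufv2, stood at 64.8 ± 2.46 and 64.7 ± 2.26 (SD, n = 2). By place, the 12 mitochondrial targets had a median of 34.9 ± 4.69, the 4 cytosolic ones 9.30 ± 0.852 and the 7 nuclear ones 15.4 ± 4.97 (SD, n = 2). Aco1 had 394 and 54 counts with a log2 ratio of -1.99, and Ercc2, a DNA repair helicase, 278 and 61 with -1.31, so both had over 2-fold fewer normalised counts in replicate 2. From coding-scaled TPM their log2 ratios were -0.81 and -0.67, under 2-fold, with overlapping deposited credibility intervals. The DNA glycosylases Nthl1 and Mutyh were near the limit of detection with 10 and 3, and 12 and 14 counts, Mutyh at a log2 ratio of 1.10, and Dpyd had 0 in both. Nthl1 and Mutyh, with means below 100 counts, were outside the background count too.

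The genes that bring iron and substrate to ferrochelatase were also mostly high. Of 6 heme and iron partners, Fech included, 4 lay in the top 10%, and the median was 549 and 631, 589.7 ± 58.2 (SD, n = 2). That median is the midpoint of Fech, at 939 and 1008, and Tmem14c, at 158 and 254. Without Fech, which is also among the targets above, the middle gene of the list would be Tmem14c in both libraries. Alas2, the first enzyme of erythroid heme synthesis, stood at 3589 and 4077, and Slc25a37 (mitoferrin-1), the iron importer that Abcb10 binds, at 2563 and 2316. Slc25a28, the mitoferrin of other tissues, stood at 5.33 and 7.83, and Abcb6, a porphyrin transporter, at 65.8 and 73.4.

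**Figure D4:**
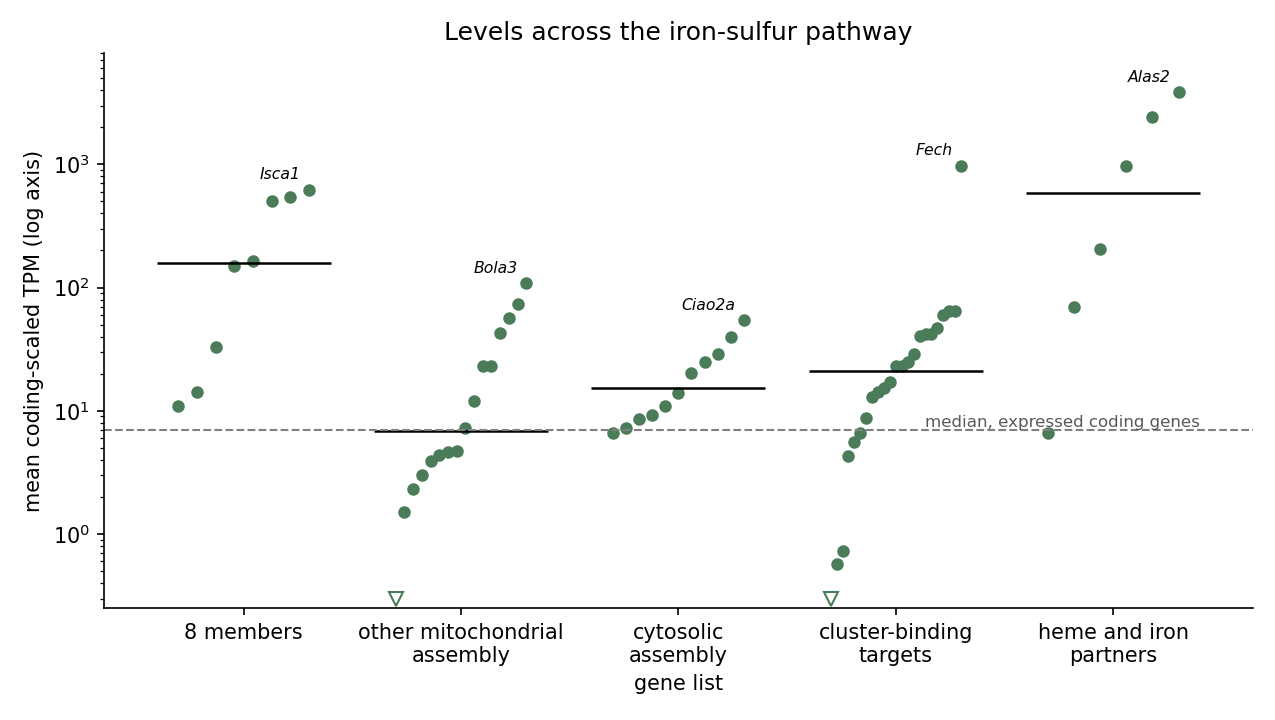
Mean coding-scaled TPM (log axis) of each gene in the 8-member set and 4 related lists, with the list median as a bar, the median expressed protein-coding gene as a dashed line and genes at 0 counts as open triangles at the bottom. The 8 members have a median of 157, between the heme and iron partners at 589.7 and the cluster-binding targets at 21.1. Fech is plotted in both of those lists, and the 589.7 is the midpoint of Fech and Tmem14c.

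Promoter sequence was available from RefSeq (GRCm38.p6) for 6 of the 8, Nfs1, Lyrm4, Glrx5, Isca1, Isca2 and Abcb10, in windows of equal length around the annotated start. Stretches upstream of the start are shown for the 3 highest genes and for Isca2, the low partner of Isca1, with matches to 3 short motifs in capitals. The letters CCAAT, known as the NF-Y box, are marked in Isca1 (chr13:59769820-59769899, minus strand), Isca2 (chr12:84773110-84773229, plus strand) and Glrx5 (chr12:105032458-105032617, plus strand). The letters AGATAA, of the kind bound by the erythroid factor GATA1, are marked in Isca2. The letters GCGCATGC, part of the site of the mitochondrial biogenesis factor NRF1, are marked in Abcb10 (chr8:123983133-123983192, minus strand). Each motif was searched on both strands, so that ATTGG and TTATCT are the first pair of motifs on the other strand, and the capitals in Abcb10 are overlapping matches on both strands.
Isca1: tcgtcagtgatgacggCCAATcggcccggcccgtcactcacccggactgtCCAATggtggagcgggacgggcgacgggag
Isca2: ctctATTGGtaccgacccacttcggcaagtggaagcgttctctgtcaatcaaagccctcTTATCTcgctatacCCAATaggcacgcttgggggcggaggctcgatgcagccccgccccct
Glrx5: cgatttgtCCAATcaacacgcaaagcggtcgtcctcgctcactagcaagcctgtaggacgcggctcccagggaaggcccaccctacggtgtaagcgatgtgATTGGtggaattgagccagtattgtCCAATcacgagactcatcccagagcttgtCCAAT
Abcb10: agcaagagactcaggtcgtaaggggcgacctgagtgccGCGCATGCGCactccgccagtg
Across 32851 promoters of the same length, 37.4% held CCAAT at least once, 11.2% AGATAA and 2.71% GCGCATGC. Glrx5 held CCAAT 4 times, and 1.06% of promoters held it that often or more. Of 3 further motifs searched, the ETS letters CCGGAAGT, in 3.89% of promoters, were in Isca1 and Nfs1, outside the stretch shown for Isca1. The SP letters CCGCCC, in 35.7%, were in Isca2, where they are not marked, and in Lyrm4. The KLF1 letters CCACACCC, in 3.56%, were in none of the 6. A match describes the letters and not a bound site, and no binding data were analysed here.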

How the data were processed

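Per the deposited text records, the files are on mm10 with GENCODE M4. Neither aligner nor quantifier is given in the sources used here. The authors deposited, for each library, gene and transcript tables of expected counts, TPM, posterior means and SDs, the percent of a gene's TPM taken by each transcript, and credibility bounds of TPM, a non-negative signal whose level is not given there. FPKM columns deposited by the authors served only as an alternative for the levels. Symbols, exons and transcript sequences came from GENCODE M21 (GRCm38), which matched 42462 of 43346 Ensembl genes (98.0%), and promoters from RefSeq. TPM was rescaled over 21461 nuclear protein-coding genes. Counts were rounded to integers, then scaled by TMM (edgeR 4.0.16, R 4.3.3) over all genes, and library ratios carry exact Clopper-Pearson 95% intervals (scipy 1.17.1). The TMM log2 ratios were tested on simulated counts with known fold changes. That simulation did not check the intervals. Near-identical copies were sought with BLAST at 95% identity or more over 200 bases or more. With 1 group of 2 libraries no test of conditions was made and no p-value is given.

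The members and gene lists were chosen with earlier results of these data known. Named genes were all members, the 3 highest and 2 lowest of each list, genes under 1 coding-scaled TPM in a library or at least 2-fold apart, partner genes of the ratios (1 gene pair is not reported here), and transcripts that led or had a mean share of at least 10%. Isca1-202, Iscu-202, Hscb-202, Hscb-204, the gene Tmem14c and the markers named by level fall outside that rule. They were chosen after their values were seen. Alternatives were other scalings, FPKM, posterior means, CPM, globin genes left out, stricter filters and each library alone.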

Additional observations from a re-analysis of the deposited data

How the results depend on the processing

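With globin genes left out of the rescaling, which raises every level, the median of the 8 genes was 245, and the list medians were 10.6 (other mitochondrial assembly), 23.6 (cytosolic assembly), 32.9 (targets) and 918 (heme and iron partners). Counting only protein-coding transcripts, an alternative added after seeing the data, gave a member median of 123 and lowered Hscb to 89.2. Without 1 library the member median ranged from 154 to 159 and the median percentile from 94.3 to 94.5. That percentile was 92.5 among genes at 1 or more in both libraries and 84.1 in CPM. In CPM the middle pair was Iscu, at 46.7 and 51.1, and Hscb, at 30.8 and 23.1. Hscb, the lower of the pair, was therefore outside the top 10% in CPM. With library totals only, 1 member (Isca2, at -1.0) was at least 2-fold apart, the median log2 ratio was -0.23, and Abcb10 turned to -0.04. That scaling lowers the ratio of every gene relative to TMM. The share of all genes 2-fold apart under it was not computed, so the Isca2 call has no background beside it. From coding-scaled TPM the median log2 ratio was 0.05. The median share of the leading transcript was 77.8%, and 75.6% from posterior means. In CPM the ratios were 52.4 for Isca1 over Isca2, 6.31 for Iscu over Nfs1, 9.47 for Glrx5 over Glrx3, and 2.28 for Hspa9 over Hscb, whose order turned. No paired analysis was possible because the only group has nothing to be paired with. Depth limits Nfs1, Lyrm4 and Isca2 most, with under 150 counts each in replicate 2.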
